A study of Homo sapiens with 12 samples.

Results

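The receptors for cytokines, interferons and related hormones are built from a limited set of membrane chains, and 40 genes for such chains were followed in 501Mel melanoma cells after silencing of the chromatin remodellers CHD4 or CHD3. The members are a list of gene names (gp130-type and single-chain class I receptors, the common beta and common gamma families, class II receptors for interferons and the IL-10 family, and the IL-17 and IL-1 receptors), and every row of the 2 gene expression tables with 1 of these names was taken. Among 31911 genes with counts in the siCHD4 table, 38 members were found in 39 rows, because IFNAR2 has 2 rows, and among 33154 genes with counts in the siCHD3 table there were 39 members, in 39 rows. The IL20RA row holds no values in either table and the IL18R1 row holds none in the siCHD4 table, so they were not analysed there.

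501Mel is a human melanoma cell line grown in RPMI with foetal calf serum. All cells of the 4 groups were transfected by lipofection with a pool of siRNAs and collected 72 h later: siCHD4 replicates 1 to 3 with siCtrl replicates 1 to 3 in the first table, and siCHD3 replicates 1 to 3 with siCtrl replicates 4 to 6 in the second. The tables have no control library in common, so each silencing was read against the controls of its own table. A single cell line and 1 siRNA pool per target were used for these libraries. The question was what each CHD ATPase of the NuRD (nucleosome remodelling and deacetylation) complex does to gene expression.

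Class I chains share a cytokine-binding fold and class II chains a related one, and both kinds signal through JAK kinases bound to their cytoplasmic tails, which phosphorylate STAT transcription factors. Most receptors need at least a ligand-binding chain and a signalling chain: gp130 (IL6ST) signals for IL-6, IL-11, LIF, oncostatin M and CNTF, the common beta chain (CSF2RB) for GM-CSF, IL-3 and IL-5, and the common gamma chain (IL2RG) for the IL-2 family. IL-1 and IL-17 receptors use other adaptors and signal to NF-kappaB. Melanoma cells are known to respond to interferon gamma, IL-6 type cytokines and IL-1.

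The 12 libraries held between 38573214 and 102005319 counts. The library of siCtrl replicate 3 stood apart from the others in its table, with the fewest counts (44966728), the fewest genes with a count (21878) and a TMM scaling factor of 0.816 against 0.998 to 1.07 for the other 5, and results that change without it are named below. CHD4 was lowered after siCHD4 (53747, 37082 and 21689 counts in siCtrl, 6914, 5036 and 6799 in siCHD4, log2 fold change −3.03 ± 0.22 SE, edgeR adjusted p = 7.24e-04) and CHD3 after siCHD3 (3022, 4950 and 3778 counts in siCtrl, 815, 764 and 982 in siCHD3, −2.30 ± 0.15, edgeR adjusted p = 2.75e-06). Of 7 melanocyte lineage markers all had counts, summing to 15080 to 21420 CPM (the reads of a gene scaled to the size of its library) in the siCHD4 table and 13010 to 17240 in the siCHD3 table. The 18 blood cell markers summed to 21.8 to 23.5 CPM in siCtrl and 23.8 to 26.2 in siCHD4, and to 7.47 to 8.54 in siCtrl and 16.1 to 21.2 in siCHD3, and most of this was NCAM1. PTPRC, the pan-leukocyte marker, had 3 counts over the siCtrl and 4 over the siCHD4 libraries, and 9 and 5 in the siCHD3 table. The 11 fibroblast and endothelial markers summed to 7.28 to 10.6 CPM in siCtrl and 10.2 to 11.4 in siCHD4, and to 13.3 to 14.5 in siCtrl and 19.4 to 31.8 in siCHD3. Of these, 3 of 7 tested were called higher after siCHD4 (4.8% of all genes tested were), at low counts over 3 libraries: VWF from 16 to 143 (log2 fold change 2.73 ± 0.46, edgeR adjusted p = 0.0133), CDH5 from 49 to 287 (2.17 ± 0.39, 0.0167) and PDGFRB from 51 to 233 (1.65 ± 0.33, 0.0238). These calls fell away when siCtrl replicate 2 or any 1 siCHD4 replicate was dropped (adjusted p up to 0.125). After siCHD3 LUM, a collagen-binding proteoglycan, was the 1 called of 4 tested (1.05 ± 0.20, 0.00273), and NCAM1 was higher (1.43 ± 0.19, 2.95e-04). The part of other cell types in the results was not tested. In bulk RNA, fewer cells with a transcript and less RNA per cell cannot be told apart. The labels number the libraries without saying whether each came from its own culture, so p-values measure only the spread between these libraries, which may be technical.

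Chains called in these data start from promoters of unlike base composition, and the 250 bases before a RefSeq start of 5 of them are printed to show this. They are given 5′ to 3′ on the strand of the gene, from the RefSeq promoter table (GRCh38.p14), with their positions found by exact match in GRCh37, the build of the files. Capitals mark GGGCGG or its complement CCGCCC, the GC box letters.
CNTFR, chr9:34589723-34589972, minus strand: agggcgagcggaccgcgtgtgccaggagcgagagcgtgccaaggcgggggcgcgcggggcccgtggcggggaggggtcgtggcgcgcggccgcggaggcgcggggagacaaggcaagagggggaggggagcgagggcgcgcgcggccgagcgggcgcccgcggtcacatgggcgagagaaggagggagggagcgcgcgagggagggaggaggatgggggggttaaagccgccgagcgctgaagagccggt
PRLR, chr5:35230590-35230839, minus strand: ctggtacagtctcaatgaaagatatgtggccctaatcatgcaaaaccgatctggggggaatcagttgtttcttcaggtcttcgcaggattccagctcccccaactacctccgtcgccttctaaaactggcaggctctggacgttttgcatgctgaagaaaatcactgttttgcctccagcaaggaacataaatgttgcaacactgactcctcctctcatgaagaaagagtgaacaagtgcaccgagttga
CSF2RA, chrX:1387457-1387706, plus strand: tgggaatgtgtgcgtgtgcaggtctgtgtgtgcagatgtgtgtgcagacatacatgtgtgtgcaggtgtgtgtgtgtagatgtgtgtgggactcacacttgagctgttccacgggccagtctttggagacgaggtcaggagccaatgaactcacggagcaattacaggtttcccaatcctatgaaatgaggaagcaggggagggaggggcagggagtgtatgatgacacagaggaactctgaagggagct
IL17RC, chr3:9958532-9958781, plus strand: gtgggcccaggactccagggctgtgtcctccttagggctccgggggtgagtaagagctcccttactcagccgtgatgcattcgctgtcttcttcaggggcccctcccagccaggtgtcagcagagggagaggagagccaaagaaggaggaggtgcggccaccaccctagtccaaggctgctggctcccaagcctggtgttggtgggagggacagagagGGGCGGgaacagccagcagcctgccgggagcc
IL17RD, chr3:57204346-57204595, minus strand: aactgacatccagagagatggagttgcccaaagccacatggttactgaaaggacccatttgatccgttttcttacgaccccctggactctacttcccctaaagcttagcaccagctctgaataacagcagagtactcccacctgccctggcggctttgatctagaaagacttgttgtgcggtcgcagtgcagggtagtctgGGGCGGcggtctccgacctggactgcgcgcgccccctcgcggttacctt
The CNTFR window is 77.6% G and C, more than in 93.8% of all 35116 RefSeq promoters, with an observed over expected CpG ratio of 1.22, whereas the PRLR window is 47.6% G and C with a ratio of 0.426. The CSF2RA, IL17RD and IL17RC windows lie between them at 52.8%, 56% and 65.2%. PRLR and IL17RD each have a second RefSeq start further into the gene, and those windows, not printed, are 36.4% and 68.8% G and C. IFNGR1 and IL1RAP, also called and not printed, have windows of 69.6% and 63.6% (IFNGR1) and 74.8% (IL1RAP). Over 58 windows of 35 members the median was 62.8% against 58% for all promoters.

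4 kinds of letters were searched on both strands of these windows, as descriptions and not as binding sites, and matches of 1 kind may overlap those of another. GGGCGG was found in 28 of the 58 member windows (48.3%) and in 42.6% of all promoters. TGANTCA, the letters of an AP-1 site, was found in 6 member windows (10.3%, against 6.57% of all), TTCNNNGAA, those of a STAT site, in 6 (10.3%, against 6.57%), and the E-box CACGTG in 1 (1.7%, against 6.34%). Among the 5 printed windows only IL17RC and IL17RD hold any of the 4, and in both it is GGGCGG. The second window of PRLR holds TGANTCA and that of IL17RD holds GGGCGG.

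In the control cells the levels of the chains ran from 0 to 24741, as the plot of control levels shows. Levels between genes are given per length, as the deposited normalized count per kb, and each table was scaled by itself. The highest was IL6R, the ligand-binding chain for IL-6, at 24741 (19454 to 28136 over 3 libraries) in siCtrl 1 to 3 and 16905 (14789 to 18500) in siCtrl 4 to 6. It was followed in the first set by IL17RA, the chain common to the IL-17 receptors (5310, 4321 to 7090), IFNGR2 (4404, 3730 to 5289), IL6ST (3124, 1336 to 4284) and IL1RAP, the accessory chain of the IL-1 receptor (2667, 1300 to 3882). On this deposited measure only IL6R stood clear of the next gene, since each of the 4 that follow overlapped its neighbour in range. Its lead and the place of IL17RA depend on the deposited gene lengths, which are not given. Before scaling by length IL6R had 191 ± 33.4 CPM in siCtrl 1 to 3, IFNGR2 76.6 ± 13.2 and IL17RA 45.6 ± 14.0 (SD, n = 3). Their GENCODE exon bases are 6993, 2539 and 9288, and with these lengths IL6R would not stand clear of IFNGR2. In siCtrl 4 to 6 the order after IL6R was IL6ST (4645), IFNGR2 (3481), IL1RAP (3279), GHR (1925), IFNGR1 (1615) and IL17RA (1573).

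**Figure D1:**
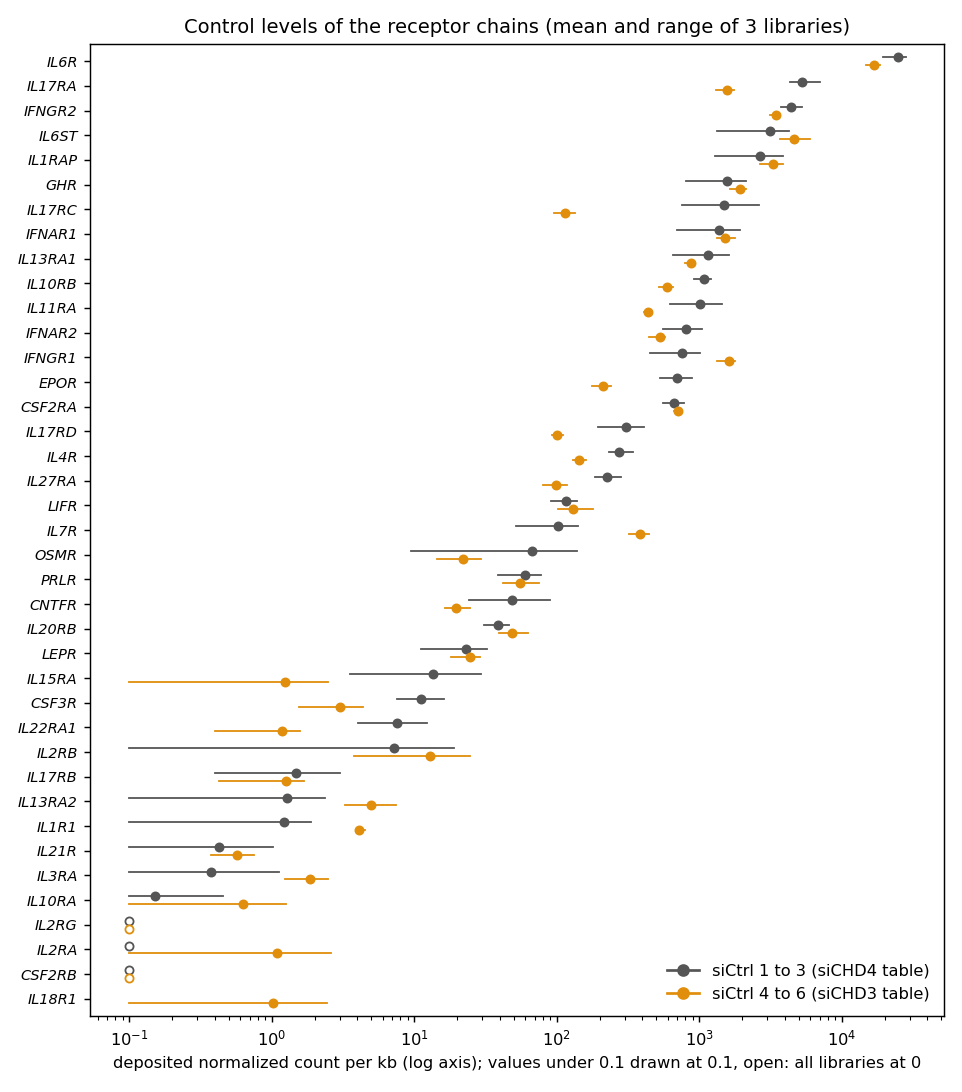
Level of each receptor chain in siCtrl replicates 1 to 3 and 4 to 6, as the deposited normalized count per kb on a log axis, with the mean as a point and the lowest to highest library as a line. IL6R leads in both sets on this deposited measure, whose gene lengths are not given, while CSF2RB and IL2RG are at 0 in all 6 control libraries.

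The signalling chains of the blood cell families were at or near 0 in the controls, although some of their partners were well expressed. CSF2RB and IL2RG had 0 counts in all 6 siCtrl libraries, which allows up to 0.0145 CPM in the first set and 0.023 in the second (3 counts over the group, counting error only). CSF2RA, the GM-CSF binding chain, had 670 normalized counts per kb in siCtrl 1 to 3 and 714 in siCtrl 4 to 6. IL4R, which pairs with IL2RG or IL13RA1, had 274 and 144, and IL13RA1 had 1154 and 876.

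After CHD4 silencing the receptor for CNTF (CNTFR), the prolactin receptor (PRLR), the ligand-binding interferon gamma chain (IFNGR1), the GM-CSF chain (CSF2RA), IL7R and IL2RB were up-regulated, and IL17RD and IL4R were down-regulated. The largest was CNTFR, from 1.22 ± 0.93 to 13.2 ± 1.57 CPM (SD, n = 3). Of 29 members with enough counts to test, 6 were called higher and 2 lower (edgeR quasi-likelihood test, Benjamini-Hochberg adjusted p under 0.05 over 17018 genes and an absolute log2 fold change over 1), against 4.8% of all genes tested called higher and 1.65% lower (6.45% in either direction). The median log2 fold change of the 29 was 0.13, with 18 above 0 and 11 below, against −0.06 over all genes tested. Every siCHD4 library was above every siCtrl library for 7 tested members and below for 5, where 16.8% and 14.5% of all genes tested did so. The 7 include IL2RB and IL13RA2, and the 5 include IL22RA1. These reached the cutoff of the count filter in all 3 libraries only of the group where they were high, and OSMR, among the 18, only in siCHD4. Their places are not support for these counts or for the median. Without siCtrl replicate 3, 7 members were called higher and 1 lower, with 1551 and 479 of all genes in place of 817 and 280. Without siCtrl replicate 2, 3 members were called higher and 0 lower (260 and 52 of all genes), and without siCHD4 replicate 1 again 3 and 0 (232 and 29). Without siCHD4 replicate 2 or 3, 4 were higher and 0 lower. In these 4 fits with no lower member, 2 or 3 members were lower at an unadjusted p under 0.05, against 5 with all libraries, and DESeq2 called 6 members higher and 2 lower.

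**Figure D2:**
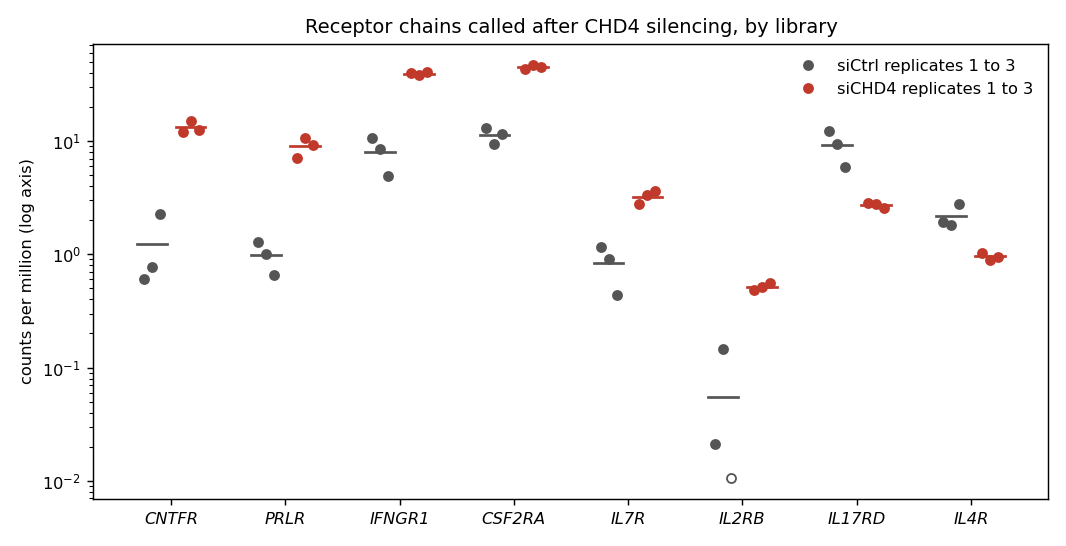
CPM on a log axis for the 8 receptor chains called after CHD4 silencing, 1 point per library with the mean as a line (siCtrl replicates 1 to 3 in grey, siCHD4 replicates 1 to 3 in red; the open point for IL2RB is a library at 0, drawn below the lowest value). The silenced and control libraries overlap for none of the 8 genes.

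Among the gp130-type chains CNTFR was the 1 call. CNTFR is the GPI-anchored, ligand-binding chain of the CNTF receptor, which works with LIFR and gp130, and the gene (ENSG00000122756) lies at chr9:34551430-34590138 on the minus strand (GRCh37, GENCODE v44lift37). It had 57, 59 and 84 counts in siCtrl against 1051, 1286 and 1333 in siCHD4. The silenced libraries were all far above the controls, and the highest control was siCtrl replicate 3, the smallest library. The log2 fold change was 3.49 ± 0.50 (SE, edgeR adjusted p = 0.00806), and the call was lost without siCtrl replicate 2 or without siCHD4 replicate 1 (adjusted p up to 0.0567, log2 fold change 3.16 to 4.28 over the 6 libraries left out in turn).

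CNTFR was also the member for which the study designed RT-qPCR primers, shown here because they fix the part of the transcript that was measured by that assay.
CNTFR forward: agaaaatgtggtagcccggc
CNTFR reverse: gcatctgtgatggtgtgtgc
The forward primer lies in exon 7 of 10 of the canonical transcript (chr9:34556381-34556400) and the reverse primer in exon 8 (chr9:34552812-34552831), both within the coding sequence (GRCh37), for a product of 189 bases across 1 intron. Both match 3 of the 4 GENCODE transcripts of CNTFR. The counts here are over the whole gene and do not separate these transcripts. By RT-qPCR on independent RNA after CHD4 silencing, the study reported that CNTFR rose to a comparable degree in this melanoma line and in others.

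The partners of CNTFR did not pass the test. LIFR, the signalling partner for LIF and CNTF, had 85, 87 and 52 counts in siCtrl against 155, 91 and 357 in siCHD4 (log2 fold change 0.85 ± 0.42, edgeR adjusted p = 0.293), and the groups overlapped in CPM. IL6ST had 6588, 4625 and 816 counts in siCtrl against 4183, 5746 and 7134 in siCHD4 (0.25 ± 0.40, adjusted p = 0.777), with siCtrl replicate 3 far below the rest. IL6R had 20433, 15501 and 5613 counts in siCtrl against 15981, 18219 and 22795 in siCHD4 (0.09 ± 0.21, adjusted p = 0.854), and IL11RA, the IL-11 binding chain, had 594, 712 and 547 and then 712, 687 and 801 (−0.37 ± 0.31, adjusted p = 0.552). In both, the libraries of the 2 groups overlapped. Of the IL11RA exon bases 32.5% are shared with another annotated gene on its strand, so its counts are uncertain. The other 4 tested chains of this class, OSMR, LEPR, CSF3R and IL27RA, had log2 fold changes between 0.02 and 0.31.

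Of the single-chain receptors, which form homodimers, PRLR was called. PRLR (ENSG00000113494, chr5:35048861-35230589, minus strand) had 121, 76 and 24 counts in siCtrl against 610, 918 and 990 in siCHD4, or 0.977 ± 0.312 and 8.97 ± 1.84 CPM (SD, n = 3). All silenced libraries lay above all controls. The log2 fold change was 3.17 ± 0.31 (edgeR adjusted p = 0.00201), and the call was kept with each of the 6 libraries left out in turn (adjusted p up to 0.0273).

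Its relatives for growth hormone and erythropoietin were not called. GHR had 5760, 3711 and 858 counts in siCtrl against 3417, 3442 and 4632 in siCHD4 (log2 fold change −0.12 ± 0.34, edgeR adjusted p = 0.875), with overlapping groups. EPOR had 1251, 1278 and 828 counts in siCtrl against 1013, 867 and 1164 in siCHD4 (−0.69 ± 0.24, adjusted p = 0.146), and in CPM every silenced library was below every control.

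In the common beta family CSF2RA was higher and its signalling partner was near 0. CSF2RA (ENSG00000198223, chrX:1387693-1429274, plus strand, in the pseudoautosomal region) had 1241, 712 and 420 counts in siCtrl against 3744, 4053 and 4871 in siCHD4, or 11.3 ± 1.87 and 45.2 ± 2.03 CPM (SD, n = 3). Its libraries did not overlap between groups and were close to each other within each. On the log2 scale the change was 1.999 ± 0.217 (edgeR adjusted p = 0.00269), kept with each library left out (adjusted p up to 0.0311). CSF2RB, without which GM-CSF, IL-3 and IL-5 receptors do not signal, had 0 counts over the siCtrl libraries and 3 over the siCHD4 libraries, and the IL-3 binding chain IL3RA had 1 and 1. Neither could be tested.

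Of the common gamma family and the IL-13 chains, IL7R and IL2RB rose and IL4R fell. IL7R, the IL-7 binding chain, had 110, 69 and 16 counts in siCtrl against 240, 284 and 386 in siCHD4, or 0.835 ± 0.368 and 3.22 ± 0.42 CPM (SD, n = 3), without overlap. The log2 fold change was 1.91 ± 0.34 (edgeR adjusted p = 0.0173), and it did not pass when siCtrl replicate 2 or any siCHD4 replicate was left out (adjusted p up to 0.0917). IL2RB, a signalling chain for IL-2 and IL-15, had 2, 11 and 0 counts in siCtrl against 42, 44 and 60 in siCHD4, again without overlap in CPM. Its log2 fold change was 3.04 ± 0.73 (edgeR adjusted p = 0.0477), and the call was lost without siCtrl replicate 1 or any 1 of the siCHD4 replicates (adjusted p up to 0.18) and with DESeq2 size factors. It reached the cutoff of the count filter (10 counts at the median library size) in 1 siCtrl library and in all 3 siCHD4 libraries, so it was tested only through the group where it was high, and its place among the 6 higher members is not support for that count.

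IL4R (ENSG00000077238) had 182, 139 and 102 counts in siCtrl against 90, 77 and 102 in siCHD4, or 2.18 ± 0.524 and 0.96 ± 0.0708 CPM (SD, n = 3). Every silenced library was below every control in CPM. The log2 fold change was −1.17 ± 0.25 (edgeR adjusted p = 0.0295), and the call was lost when siCtrl replicate 2 or 3 or any 1 of the siCHD4 replicates was left out (adjusted p up to 0.173). IL13RA1, its partner in the type II IL-4 receptor, had 2886, 1704 and 465 counts in siCtrl against 1830, 1878 and 2361 in siCHD4 (−0.02 ± 0.31, adjusted p = 0.982), with overlapping groups.

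IL13RA2, the decoy receptor for IL-13, had 4, 2 and 0 counts in siCtrl against 13, 11 and 26 in siCHD4. The groups did not overlap in CPM, but the log2 fold change of 2.58 ± 0.65 did not pass (edgeR adjusted p = 0.0563). It too was tested only through the siCHD4 libraries. It passed without siCtrl replicate 3 (adjusted p = 0.0156), without the count filter (0.0372) and in the fit over all 12 libraries (0.0182).

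In the class II family IFNGR1 was the 1 call, and its partner IFNGR2 did not pass. IFNGR1 (ENSG00000027697, chr6:137518620-137540586, minus strand) had 1013, 650 and 180 counts in siCtrl against 3441, 3284 and 4326 in siCHD4, or 8.05 ± 2.93 and 39.4 ± 1.04 CPM (SD, n = 3), without overlap. The log2 fold change was 2.28 ± 0.31 (edgeR adjusted p = 0.00632), lost without siCtrl replicate 2 (adjusted p = 0.0519). IFNGR2, which carries the second JAK of this receptor, had 8656, 5500 and 2425 counts in siCtrl against 8226, 7196 and 9231 in siCHD4 (0.20 ± 0.21, adjusted p = 0.628), with overlapping groups.

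The type I interferon chain IFNAR1 had 4509, 2805 and 640 counts in siCtrl against 3158, 3154 and 4175 in siCHD4 (log2 fold change 0.13 ± 0.35, edgeR adjusted p = 0.867), and the groups overlapped. IFNAR2 (−0.53), IL10RB (−0.03), IL20RB (0.05) and IL22RA1 (−1.51) gave the other log2 fold changes, with adjusted p from 0.175 for IL22RA1, at 14, 17 and 17 and then 6, 5 and 15 counts, to 0.946 for IL10RB. Of the IL10RB exon bases 21.6% are shared with a readthrough gene joining IFNAR2 and IL10RB, and the second IFNAR2 row (2 and 4 counts) is that gene in GENCODE, so these counts are uncertain.

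IL17RD, a member of the IL-17 receptor family also known as a brake on FGF signalling (Sef), showed the larger of the 2 called falls. IL17RD (ENSG00000144730, chr3:57124010-57204334, minus strand) had 1151, 710 and 217 counts in siCtrl against 245, 238 and 276 in siCHD4, or 9.14 ± 3.12 and 2.72 ± 0.134 CPM (SD, n = 3). All silenced libraries were below all controls in CPM, and siCtrl replicate 3 was the lowest control. Its log2 fold change was −1.75 ± 0.28 (edgeR adjusted p = 0.0116), and it did not pass when siCtrl replicate 2 or any siCHD4 replicate was left out (adjusted p up to 0.0831).

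The IL-17 and IL-1 signalling chains themselves were not called after siCHD4. IL17RA had 3474, 2912 and 2265 counts in siCtrl against 2437, 2625 and 3371 in siCHD4 (log2 fold change −0.60 ± 0.26, edgeR adjusted p = 0.222), below every control in CPM. IL17RC, its partner for IL-17A and IL-17F, had 1206, 1334 and 1662 and then 1425, 1660 and 1829 counts (−0.52 ± 0.45, adjusted p = 0.556), and the control CPM values were wide (25.2 ± 17.6, SD). IL1RAP had 9384, 5462 and 1248 counts in siCtrl against 6187, 7605 and 9855 in siCHD4 (0.29 ± 0.37, adjusted p = 0.7), with overlapping groups.

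After CHD3 silencing other chains moved. IL17RC rose from 3.31 ± 0.564 to 14.3 ± 2.25 CPM (SD, n = 3), and IL1RAP, LIFR, IL4R and IL20RB fell. Of 25 members tested 1 was called higher and 4 lower, against 3.89% and 4.33% of the 16115 genes tested (8.22% in either direction). The median log2 fold change of the 25 was −0.11, with 10 above 0 and 15 below, against −0.02 over all genes tested. OSMR, among the 15, reached the cutoff of the count filter in all 3 libraries of siCtrl only, so its place is not support for that count. Every siCHD3 library was above every control for 5 tested members and below for 8, where 19.7% and 17.4% of all genes tested did so. Without siCtrl replicate 5, 2 members were higher and 1 lower, and without siCHD3 replicate 2, 3 were higher and 4 lower.

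**Figure D3:**
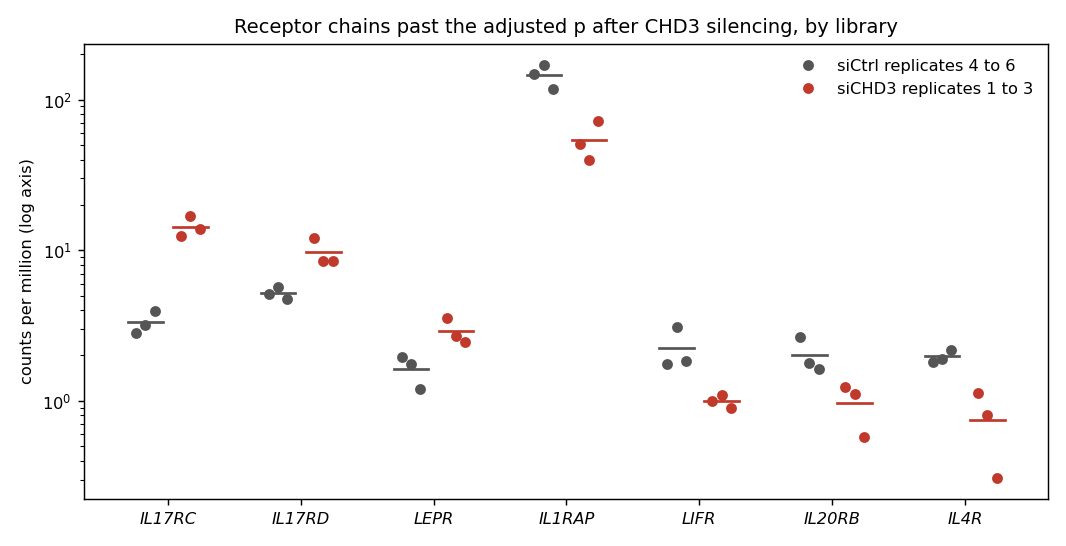
CPM on a log axis for the 7 receptor chains past the adjusted p after CHD3 silencing, 1 point per library with the mean as a line (siCtrl replicates 4 to 6 in grey, siCHD3 replicates 1 to 3 in red). IL17RC, IL17RD and LEPR lie above their controls and the other 4 below, without overlap, and only IL17RD and LEPR changed by less than the log2 threshold of 1.

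IL17RC (ENSG00000163702, chr3:9958758-9975314, plus strand) had 110, 166 and 154 counts in siCtrl against 533, 710 and 771 in siCHD3, with no overlap. On the log2 scale it changed by 2.11 ± 0.20 (edgeR adjusted p = 3.88e-05), kept with each library left out (adjusted p up to 4.11e-04). Of its exon bases 46.5% are shared with ENSG00000288550 on the same strand, so the counts are uncertain. In the siCHD4 table, which was scaled by itself, the same gene had 25.2 ± 17.6 CPM in siCtrl and 17.6 ± 1.53 in siCHD4 (SD, n = 3).

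Both other tested IL-17 chains were above their controls in every siCHD3 library. IL17RD had 199, 294 and 187 counts in siCtrl against 518, 359 and 473 in siCHD3 (log2 fold change 0.90 ± 0.20, edgeR adjusted p = 0.00703), past the adjusted p but under the fold threshold, which it passed without siCHD3 replicate 2 (1.01). IL17RA had 767, 1337 and 955 counts and then 1280, 1350 and 1562 (0.36 ± 0.16, adjusted p = 0.125).

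IL1RAP (ENSG00000196083, chr3:190231840-190377539, plus strand), which IL-1, IL-33 and IL-36 receptors need to signal, was the most abundant chain that fell. It had 5797, 8850 and 4646 counts in siCtrl against 2190, 1692 and 3989 in siCHD3, or 146 ± 26.2 and 54.2 ± 16.2 CPM (SD, n = 3). The groups did not overlap. Its log2 fold change was −1.43 ± 0.22 (edgeR adjusted p = 0.00137), kept with each library left out (adjusted p up to 0.00852). The IL-1 binding chain IL1R1 had 21 counts over the siCtrl and 37 over the siCHD3 libraries (ratio of depth-scaled sums 1.63, exact 95% interval 0.928 to 2.93), and IL18R1 had 6 and 5.

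LIFR had 69, 160 and 72 counts in siCtrl against 43, 46 and 50 in siCHD3, all below the controls in CPM. Its log2 fold change was −1.17 ± 0.29 (edgeR adjusted p = 0.0126), lost without siCtrl replicate 5 (adjusted p = 0.0815), the library with 160 counts, and in the fit over all 12 libraries (0.0727). The other gp130-type chains with high counts did not pass. IL6ST had 4725, 8773 and 4072 counts and then 7077, 4965 and 9097 (0.18 ± 0.19, adjusted p = 0.578), IL6R had 7807, 12700 and 9129 and then 7769, 6875 and 13805 (−0.20 ± 0.17, adjusted p = 0.448), and the groups overlapped in both.

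IL11RA (317, 368 and 304 counts, then 171, 273 and 239) was lower in every siCHD3 library at log2 −0.64 ± 0.22, and just missed the threshold (edgeR adjusted p = 0.0518). The leptin receptor LEPR had 76, 91 and 47 counts in siCtrl against 153, 114 and 137 in siCHD3 (0.83 ± 0.26, adjusted p = 0.0419), above every control but under the fold threshold. CNTFR had 30, 37 and 42 counts and then 22, 22 and 34 (−0.62 ± 0.32, adjusted p = 0.19), with each silenced library below each control in CPM.

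IL4R had 71, 99 and 86 counts in siCtrl against 49, 34 and 17 in siCHD3, or 1.97 ± 0.196 and 0.748 ± 0.417 CPM (SD, n = 3), without overlap. On the log2 scale it changed by −1.42 ± 0.38 (edgeR adjusted p = 0.0219), lost without siCtrl replicate 5 (adjusted p = 0.0575). IL4R was the 1 member called in both tables, and lower in both. IL20RB, a chain of the receptors for IL-19, IL-20 and IL-24, had 104, 92 and 64 counts in siCtrl against 53, 47 and 32 in siCHD3 (−1.07 ± 0.33, adjusted p = 0.0353), and its call was lost without siCtrl replicate 4 or 5 or without siCHD3 replicate 3 (adjusted p up to 0.1). Its silenced libraries were all below the controls.

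Among the remaining chains with high counts, none passed. PRLR had 47, 110 and 54 counts in siCtrl against 113, 88 and 213 in siCHD3 (log2 fold change 0.86 ± 0.30, edgeR adjusted p = 0.0606), and it was called without siCtrl replicate 5 (0.0409) or without siCHD3 replicate 2 (0.0302). GHR (−0.36), EPOR (0.02), CSF2RA (0.24), IL13RA1 (0.12), IFNAR1 (−0.11), IFNAR2 (−0.08) and IFNGR2 (−0.08) were the log2 fold changes of 7 others, with adjusted p from 0.123 for GHR to 0.945 for EPOR. IL27RA, which binds IL-27 together with gp130, had 194, 372 and 235 and then 180, 186 and 190 counts (−0.60 ± 0.21, adjusted p = 0.0626), and IL10RB had 492, 546 and 527 and then 404, 364 and 461 (−0.48 ± 0.17, 0.0674). In both, each silenced library was below each control in CPM. The oncostatin M chain OSMR had 50 counts over the siCtrl and 38 over the siCHD3 libraries (−0.47 ± 0.47, adjusted p = 0.534). IFNGR1 had 1304, 1635 and 974 counts and then 1902, 1528 and 2200 (0.42 ± 0.16, adjusted p = 0.0846), above every control, and IL7R had 213, 325 and 181 and then 214, 124 and 27 (−0.98 ± 0.60, adjusted p = 0.297), with siCHD3 replicate 3 far below the others.

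**Figure D4:**
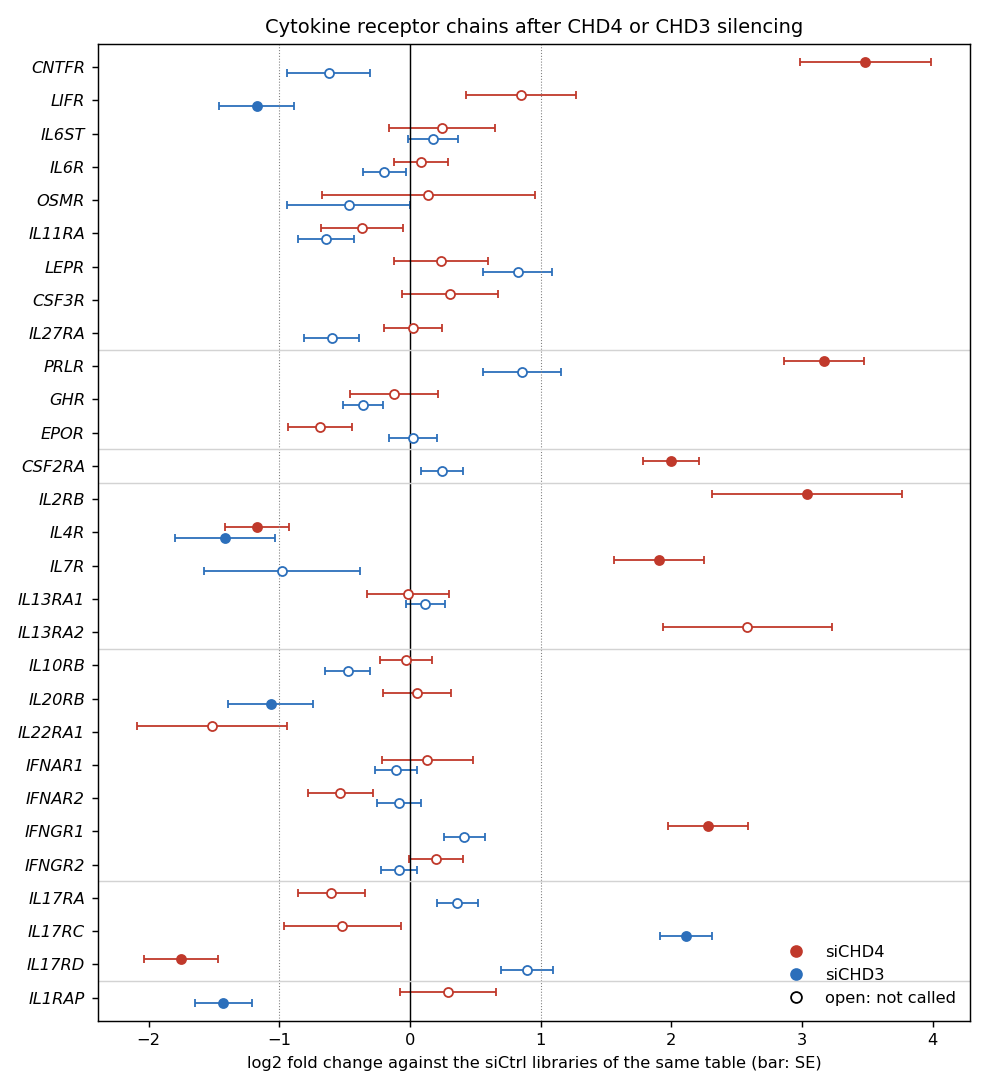
Log2 fold change of each tested receptor chain after CHD4 silencing (red) and after CHD3 silencing (blue), each against the siCtrl libraries of its own table, with SE as bars, filled points for called genes and grey lines between receptor classes. IL4R is the only gene filled in both colours, and IL17RD lies at −1.75 after siCHD4 and 0.90 after siCHD3.

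Whether the 2 silencings differed was tested directly, as the response to siCHD4 minus the response to siCHD3 over all 12 libraries, each response against its own controls. Of 28 members tested 10 had a higher response to siCHD4 and 2 a lower one, against 6.1% and 5.57% of the 17357 genes tested. CNTFR differed most (4.13 ± 0.58 on the log2 scale, edgeR adjusted p = 7.81e-04), from 3.49 after siCHD4 and −0.62 after siCHD3. CSF2RA (1.77 ± 0.24, adjusted p = 5.29e-04), IFNGR1 (1.87 ± 0.35, 0.00375) and PRLR (2.32 ± 0.45, 0.00501) also rose more with siCHD4. The IL-17 receptor chains IL17RD and IL17RC went the other way, IL17RD at −2.64 ± 0.35 (adjusted p = 5.42e-04) and IL17RC at −2.61 ± 0.51 (0.00533). These 6 were called with any 1 of the 12 libraries left out.

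The other 6 differences were LIFR (2.04 ± 0.54, edgeR adjusted p = 0.0241), IL7R (2.89 ± 0.80, 0.0298), IL1RAP (1.73 ± 0.48, 0.0301), IL13RA2 (3.12 ± 0.89, 0.034), IL2RB (3.87 ± 1.12, 0.0378) and CSF3R (2.36 ± 0.71, 0.0444). Each was lost with at least 4 of the libraries left out in turn, with adjusted p up to 0.0656, 0.067, 0.0779, 0.117, 0.139 and 0.139 in that order. IL2RB, IL13RA2 and CSF3R were under the count filter in the siCHD3 table. In the siCHD4 table IL2RB and IL13RA2 reached the filter cutoff in all 3 libraries of siCHD4 only, where they were high. The place of these 2 among the 10 higher responses is not support for that count. CSF3R, the G-CSF receptor, was also lost with DESeq2 and with no count filter (adjusted p up to 0.0704), and had 58 counts over the siCtrl and 106 over the siCHD4 libraries, and 20 and 5 in the siCHD3 table. IL17RA passed the adjusted p but not the fold threshold (−0.95 ± 0.28, adjusted p = 0.0414), and was called without siCtrl replicate 1 or 2 (−1.11 and −1.04). IL20RB did not pass (1.14 ± 0.42, adjusted p = 0.0973) and was called without siCtrl replicate 3 (1.31, adjusted p = 0.0315). For IL4R, lower in both tables, the difference was 0.26 ± 0.48 (adjusted p = 0.775). Of 25 members tested in both tables the log2 fold changes had opposite signs for 15 and the same sign for 10. The share of opposite signs over all genes was not counted, so this split has no such share beside it and is not read as a result.

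**Figure D5:**
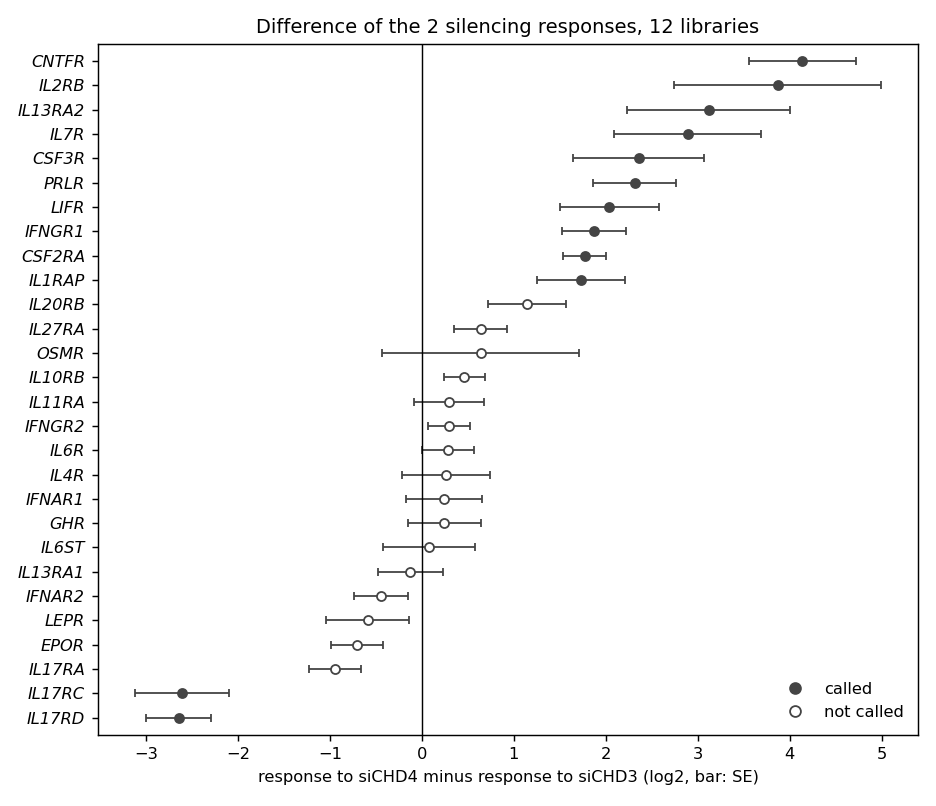
Response to siCHD4 minus response to siCHD3 on the log2 scale for the 28 receptor chains tested over 12 libraries, with SE as bars and filled points for called genes. The 10 called genes at the right run from 1.73 for IL1RAP to 4.13 for CNTFR, and IL17RC and IL17RD stand alone at the left.

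The chains too low to test were mostly those that make up receptors of lymphocytes and myeloid cells. After siCHD4 the common gamma chain IL2RG went from 0 counts over the siCtrl libraries to 3, 2 and 12 in siCHD4, which is at least 4.19-fold higher if 3 counts over the group are taken as the floor (the exact 95% interval of the ratio starts at 3.05), and IL10RA from 1 to 16 (ratio 11.8, exact 95% interval 1.84 to 496). These intervals cover counting error only. Of the IL2RG exon bases 51.3% are shared with another annotated gene on its strand. IL2RA (0 and 2 counts), IL15RA (24 and 21), IL21R (4 and 13), IL17RB (6 and 16) and IL1R1 (7 and 21) had intervals of the ratio that include 1. IL21R is uncertain, since 23.3% of its exon bases are shared with IL21R-AS1 on the opposite strand. In the siCHD3 table IL10RA had 3 and 14 counts (4.31, 1.2 to 23.4) and CSF3R 20 and 5 (0.231, 0.0677 to 0.634), and the intervals of the other 12 members under the count filter include 1. Of the 40 members 14 were called in at least 1 of the 3 comparisons and 26 in none, of which 15 had been tested in at least 1 table. Taken separately, the comparisons called 6.45% (siCHD4), 8.22% (siCHD3) and 11.7% (difference) of all genes tested. The share of all genes called in at least 1 was not counted, so the 14 has no such share beside it.

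Of 44 ligands of these receptors 11 had enough counts to test in the siCHD4 table, and 4 were called higher there. None was lower by edgeR, also at an unadjusted p under 0.05, or by DESeq2 (median log2 fold change 0.57 against −0.06 over all genes). PRL, CTF1 and IL18, among the 11, reached the cutoff of the count filter in all 3 libraries of siCHD4 only. Their places are not support for the 4 higher calls or for the median. PRL, the ligand of PRLR, had 7, 4 and 0 counts in siCtrl against 101, 75 and 109 in siCHD4 (4.29 ± 0.53, edgeR adjusted p = 0.0045), kept with each library left out. THPO, thrombopoietin, had 46, 36 and 18 and then 231, 195 and 226 counts (2.27 ± 0.23, adjusted p = 0.00212). For both, the silenced libraries lay far above the controls. IL24 (1.45, adjusted p = 0.0183) and the gp130 ligand CTF1 (1.99, 0.0476) were also called, and neither call survived the loss of siCtrl replicate 2 or of any 1 siCHD4 replicate, nor CTF1 that of siCtrl replicate 1 (adjusted p up to 0.106 and 0.2). CNTF itself had 98, 61 and 19 and then 67, 56 and 105 counts (0.01 ± 0.32, adjusted p = 0.994).

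After siCHD3 3 of 10 tested ligands were lower and 1 higher. IL24, which binds receptors with the IL20RB chain, had 2134, 2280 and 2103 counts in siCtrl against 475, 479 and 384 in siCHD3 (−2.38 ± 0.20, edgeR adjusted p = 2.08e-05). Of its exon bases 41.6% are shared with FCMR on the opposite strand, and the strand of counting is not given in the sources used here. IL11 had 422, 585 and 480 and then 24, 48 and 3 counts (−4.35 ± 0.62, adjusted p = 0.00165). Both fell in every library. CLCF1, another ligand of CNTFR, had 22, 33 and 24 and then 5, 5 and 0 counts (−3.01 ± 0.61, adjusted p = 0.00414), and IL6 rose (1.13 ± 0.35, 0.0382), a call kept in 1 of the 6 fits with a library left out.

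Receptor chains outside the list were called in both tables. The IL-1 decoy was called in the siCHD4 table and was under the count filter in the siCHD3 table. After siCHD4 3 of 9 tested were higher: IL1R2, the decoy receptor for IL-1, with 1, 1 and 0 and then 44, 44 and 37 counts (log2 fold change 5.36 ± 0.57, edgeR adjusted p = 0.00249), CSF1R, the M-CSF receptor and a myeloid marker, with 7, 11 and 3 and then 55, 79 and 83 (2.91 ± 0.38, 0.00556), and IL1RAPL1 with 7, 4 and 5 and then 42, 53 and 63 (2.78 ± 0.41, 0.00835). The first and second were called with each library left out, and IL1RAPL1 did not pass when siCtrl replicate 2, siCHD4 replicate 1 or siCHD4 replicate 2 was dropped (adjusted p up to 0.0521). The blood cell marker ITGAM was also higher after siCHD4, at low counts (24 to 148 over 3 libraries, 2.06 ± 0.45, adjusted p = 0.0335), a call that did not survive the loss of siCtrl replicate 2 or of any 1 siCHD4 replicate (adjusted p up to 0.148). IL1R2, CSF1R, IL1RAPL1, ITGAM, VWF and CDH5, the ligands PRL and CTF1, and the phosphatase PTPN6 reached the filter cutoff in all 3 siCHD4 libraries and not in all 3 siCtrl libraries, so they were tested only through the group where they were high. Their calls are not support for the counts of higher genes in their lists. After siCHD3 2 of 7 tested receptor chains outside the list were lower, IL9R at −1.96 ± 0.40 (adjusted p = 0.00443) and IL1RAPL1 at −1.86 ± 0.37 (0.00394). These, and the ligands IL11 and CLCF1, reached the cutoff in all 3 libraries of siCtrl but not of siCHD3. Their calls are not support for the counts of lower genes in their lists.

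The kinases, STATs and inhibitors downstream of the receptors gave 0 to 2 calls in each list and table, where 6.45% of all genes tested were called after siCHD4 and 8.22% after siCHD3. Of 11 JAK and STAT genes tested after siCHD4 none was called by edgeR or DESeq2 (2 higher and 1 lower at an unadjusted p under 0.05), and of 10 after siCHD3 STAT5B, which acts downstream of the prolactin and growth hormone receptors, was higher (1065, 1356 and 1040 counts, then 2658, 2598 and 4001, log2 fold change 1.29 ± 0.14, edgeR adjusted p = 8.04e-05). Of 18 negative regulators 1 was higher and 1 lower after siCHD4. The phosphatase PTPN6 had 2, 7 and 2 and then 44, 27 and 54 counts (2.99 ± 0.54, adjusted p = 0.0171), and the adaptor SH2B3 (LNK) 19007, 13399 and 4652 and then 6196, 6585 and 8403 (−1.16 ± 0.23, 0.0225). PTPN6 was lost without any 1 of the siCHD4 replicates (adjusted p up to 0.0994), and SH2B3 was lost in the same 3 fits and without siCtrl replicate 2 (up to 0.15). After siCHD3 none of 17 negative regulators was called by edgeR or DESeq2 (6 higher and 4 lower at an unadjusted p under 0.05). Of the IL-1 and IL-17 adaptors edgeR called none of 12 after siCHD4 (1 lower at an unadjusted p under 0.05, and DESeq2 called 1 lower) and none of 11 after siCHD3 (3 higher at an unadjusted p under 0.05, none by DESeq2).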

How the data were processed

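RNA-seq of 501Mel cells was analysed in 12 libraries, 3 per group. Per the labels, 6 ng of RNA was linearly amplified before library making with 8 PCR cycles, so reads are not independent molecules. Tools in the submitters' processing notes, listed there with no role, are TopHat2 2.0.10, Bowtie2 2.1.0, Bowtie2 2.2.8, HTSeq, DESeq2, CASAVA 1.8.2 and cutadapt 1.10, on build hg19. For the annotation release and counting strand, the entry is: not given in the sources used here. Raw counts per gene were deposited by the authors and were used for every test. The deposited normalized signal equals these counts over a constant factor for each library, as was checked, and the deposited signal per kb of gene was used for levels between genes. Left unused were the authors' deposited comparison columns (log2 fold changes with their raw p-values and adjusted ones).

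The 40 members and all other lists were chosen with earlier results of these data known. Library totals were 44966728 to 102005319 counts in the siCHD4 table and 38573214 to 57219281 in the siCHD3 table. After filterByExpr and TMM scaling, each table was fitted in R 4.3.3 with edgeR 4.0.16 (robust glmQLFit and its quasi-likelihood test), and p-values were Benjamini-Hochberg adjusted over all genes tested. Calls were made at adjusted p under 0.05 with an absolute log2 fold change above 1. The difference of responses was the interaction contrast over 12 libraries. CPM are counts relative to the TMM-scaled library total. Low counts have exact 95% conditional intervals, and 0 counts a floor of 3. The script was tested on simulated data. Every member is accounted for, and values by library are given for those called, for CNTFR and for up to 3 per class with the most counts, and of each other list for up to 5 called genes with the smallest adjusted p.

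The alternatives were DESeq2 1.42.0, its size factors, no count filter, a replicate block, 1 fit over 12 libraries, and each library left out. Coordinates and exon overlaps came from GENCODE v44lift37, in which all 40 member rows with counts were found. The values of 1 blood cell marker, and how many of that list were called, are not reported here.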

Additional observations from a re-analysis of the deposited data

Results flagged for a closer look

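For 12 receptor chains of 28 tested the response to CHD4 silencing differed from the response to CHD3 silencing by a direct test over the 12 libraries (edgeR interaction contrast, adjusted p under 0.05 and an absolute log2 difference over 1). Of all 17357 genes tested 11.7% were called in this way. Higher with siCHD4 were CNTFR (4.13), IL2RB (3.87), IL13RA2 (3.12), IL7R (2.89), CSF3R (2.36), PRLR (2.32), LIFR (2.04), IFNGR1 (1.87), CSF2RA (1.77) and IL1RAP (1.73), all as log2 differences. Lower with siCHD4 were IL17RD (−2.64) and IL17RC (−2.61). The differences of LIFR, IL7R, IL1RAP, IL13RA2, IL2RB and CSF3R were each lost in several of the fits with a library left out. That of CSF3R was also lost with DESeq2 and with no count filter. In the siCHD4 table IL2RB and IL13RA2 passed the count filter only through the siCHD4 libraries, where they were high, so they are not support for the count. IL17RD was called lower after siCHD4 and was past the adjusted p, but not the fold threshold, in the other direction after siCHD3. For LIFR and IL1RAP the call within a table was the fall after siCHD3, and for IL13RA2 and CSF3R there was no call within either table. For IL17RC, IFNGR1, IL7R and CSF2RA the control levels of the 2 tables also differ, as given below. Control levels of IL1RAP differ too, at 68.3 ± 32.7 CPM in the siCHD4 table and 146 ± 26.2 in the siCHD3 table (SD, n = 3). Those of LIFR were 1.15 ± 0.26 and 2.23 ± 0.742. For IL17RD they were 9.14 ± 3.12 and 5.17 ± 0.456, and its siCHD3 level of 9.67 ± 2.02 CPM was near that of the first control set.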

How the results depend on the processing

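No call of a member changed direction under any alternative run. After siCHD4 the members called higher ranged from 3 to 7 and those lower from 0 to 2 with each library left out in turn, while all genes called ranged from 232 to 1551 higher and from 29 to 536 lower. After siCHD3 the members ranged from 1 to 3 higher and from 1 to 4 lower. For the difference of responses they ranged from 4 to 11 higher and from 2 to 3 lower, and all genes higher from 780 to 1618. Of all genes lower after siCHD4 (280), DESeq2 called 457 and the fit over 12 libraries 497, and the cause was not tested. In the siCHD4 table libraries with the same replicate number did not deviate together (correlations 0.0334, 0.0199 and 0.0235), so the numbers are not taken as pairs. With the replicate block 491 genes were higher and 111 lower, with 5 members higher and 1 lower (IL2RB at adjusted p = 0.0706 and IL4R at 0.0885 did not pass), and not every sample correlated best with its own number. No paired analysis was possible because no number is shared within the siCHD3 table. Chains under about 10 counts per library could not be tested, and there only large ratios leave the counting intervals.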

Other observations

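Some receptor chains had control levels that differed more between the 2 sets of siCtrl libraries than within either. The tables were scaled separately, and the set and whatever else differed between the experiments cannot be told apart. IFNGR1 had 8.05 ± 2.93 CPM in siCtrl replicates 1 to 3 and 29.9 ± 4.49 in siCtrl replicates 4 to 6 (SD, n = 3), while siCHD4 and siCHD3 libraries had 39.4 ± 1.04 and 39.9 ± 3.99. IL7R had 0.835 ± 0.368 and 5.44 ± 0.826 CPM in the 2 control sets, so that its level in siCHD4 (3.22 ± 0.42) was below the second control set. CSF2RA had 11.3 ± 1.87 and 20.8 ± 1.51, and its siCHD4 level of 45.2 ± 2.03 was above both. CNTFR had 1.22 ± 0.928 and 0.85 ± 0.192, and PRLR 0.977 ± 0.312 and 1.57 ± 0.487, and the siCHD4 level of each was above both sets. IL17RC had 25.2 ± 17.6 and 3.31 ± 0.564, and its first control set was wide, at 12.7, 17.6 and 45.3 CPM in siCtrl replicates 1, 2 and 3. Its siCHD3 mean of 14.3 ± 2.25 lay above the second set and within the range of the first.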
